A study of Mus musculus with 12 samples.

Results

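Siglecs are cell surface lectins that bind sialic acids, the sugars that cap many glycoproteins and glycolipids. The 8 mouse genes taken as this family were Siglec1, Siglece, Siglecf, Siglecg, Siglech, Siglec15, Cd22 and Cd33, chosen by gene symbol from 17875 genes in the deposited tables. The set was picked because of how Siglec15 and Siglece varied over these same libraries, so the values of those 2 genes are described and carry no test. Every Siglec was found in the tables. RNA was sequenced from mouse subcutaneous colorectal tumours in 4 groups of 3 libraries. Control mice carried the tumour, stress mice carried the tumour under chronic stress, and the low-dose and high-dose groups carried the tumour under chronic stress and received Xiaochaihu decoction, a herbal mixture. All 4 groups therefore share the tumour, and both decoction groups share the stress. The tumour cell line, the strain, age and sex of the mice and the doses as amounts are not given in the sources used here. The labels do not tie the 3 libraries of any group to different animals, so each p-value reflects library-to-library spread alone, and that spread may be technical.

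Most Siglecs carry an inhibitory tail motif, the ITIM, which recruits phosphatases when the receptor meets sialylated ligands and damps the activity of the leukocyte that bears it. Siglec15 and Siglech lack this tail and pair with the activating adaptor DAP12, while Siglec1, also called sialoadhesin, is a long macrophage receptor that works mainly by adhesion. Tumours often carry dense sialic acid, and myeloid Siglecs are studied there as immune checkpoints.

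The libraries held 16734741 to 17950195 counts and 15476 to 15775 genes above 0, so depth was nearly the same in all 12. Of 9 colorectal epithelial marker genes in the tables, 7 stayed under 1 TPM (a level corrected for gene length and scaled to the same sum in each library) in every library, and Krt18 had no count in 11 of 12. Cdh1, encoding the epithelial adhesion protein E-cadherin, was the highest of them at 1.71 to 6.46 TPM. These epithelial markers alone therefore do not bear out the label of colorectal tissue, and the origin of the tumour cells was not tested. Macrophage markers were abundant, with a summed level of 478 to 990 TPM over 8 genes. Skeletal muscle markers summed to 281 TPM in control library 1, 208 in low-dose library 3 and 516 in high-dose library 2, against 2.55 to 47.9 in the others.

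In the RefSeq annotation of GRCm38.p6, 4 of the 8 genes lie together on chromosome 7, in the order Siglecf, Siglecg, Cd33 and Siglece, within 321 kb. Siglece spans chr7:43648882-43672044 and Cd33 spans chr7:43527399-43537424, both on the minus strand. Cd22 at chr7:30865404-30880342 and Siglech at chr7:55768154-55779448 lie elsewhere on that chromosome. Siglec1 is on chromosome 2, at chr2:131067801-131086778 on the minus strand. RefSeq promoter windows of 250 bases before to 50 after the start were matched for 6 of the 8 genes. The windows of Siglece (chr7:43660112-43660411) and Cd33 (chr7:43533122-43533421) are printed 5′ to 3′ on the minus strand, because these are the neighbouring myeloid Siglecs that the results below compare. Both windows lie inside the gene spans given above, not at their upstream ends. Capitals mark GAGGAAG or its reverse complement CTTCCTC, a purine-rich sequence of the kind that the myeloid factor PU.1 binds.
Siglece: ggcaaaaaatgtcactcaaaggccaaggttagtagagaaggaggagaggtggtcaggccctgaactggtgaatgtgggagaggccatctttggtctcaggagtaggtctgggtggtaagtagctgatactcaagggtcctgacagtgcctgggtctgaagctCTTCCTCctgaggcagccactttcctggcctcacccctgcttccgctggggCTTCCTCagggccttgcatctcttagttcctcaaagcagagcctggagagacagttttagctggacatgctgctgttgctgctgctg
Cd33: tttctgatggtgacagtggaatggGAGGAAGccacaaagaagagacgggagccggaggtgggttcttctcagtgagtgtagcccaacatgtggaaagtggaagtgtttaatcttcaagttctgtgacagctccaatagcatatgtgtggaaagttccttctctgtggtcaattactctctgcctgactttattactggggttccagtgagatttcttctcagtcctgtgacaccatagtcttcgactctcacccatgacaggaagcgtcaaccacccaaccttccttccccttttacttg
GAGGAAG was found on either strand in 4 of the 6 genes, which are the 4 of the chromosome 7 cluster. The 6 genes have 7 windows, of which 4 held a match, beside 13.6% of all 32851 RefSeq promoter windows of this length. The 4 genes with a match are neighbours in the same cluster, so they are not taken as independent. Siglece held 2 matches and Cd33 held 1, while Cd22 and Siglech held none. TGANTCA, the AP-1 sequence, was in none of the members' windows and in 7.81% of all windows. TATAAA and GGGCGG, also searched, were in none of the members' windows, beside 13.6% and 35.7% of all windows. These are matches of letters within the windows and no measure of binding.

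Siglec1, Cd33 and Siglece made up most of the family's RNA. Mean levels over the 12 libraries were 7.91 TPM for Siglec1, 5.79 for Cd33 and 3.95 for Siglece. Siglec15 followed at 1.53, Cd22 at 0.767, Siglecg at 0.307, Siglech at 0.173 and Siglecf at 0.122 TPM. Not all neighbours in this order were separated. Siglec1 was above Cd33 in 8 of 12 libraries, Cd33 above Siglece in 11, Siglece above Siglec15 in 10, and Siglec15 above Cd22 in only 6. Cd22 was above Siglecg in 11 and Siglecg above Siglech in 10, while Siglech exceeded Siglecf in 7. Siglec1 led the family in 7 libraries, Cd33 in 4 and Siglec15 in 1, low-dose library 3, where Siglec15 made up 40.2% of the family's TPM against a median of 4.87%. The summed level of the 8 genes ran from 10.2 TPM in low-dose library 2 to 32.7 in low-dose library 1, so the widest spread of the family lay within a single group.

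**Figure D1:**
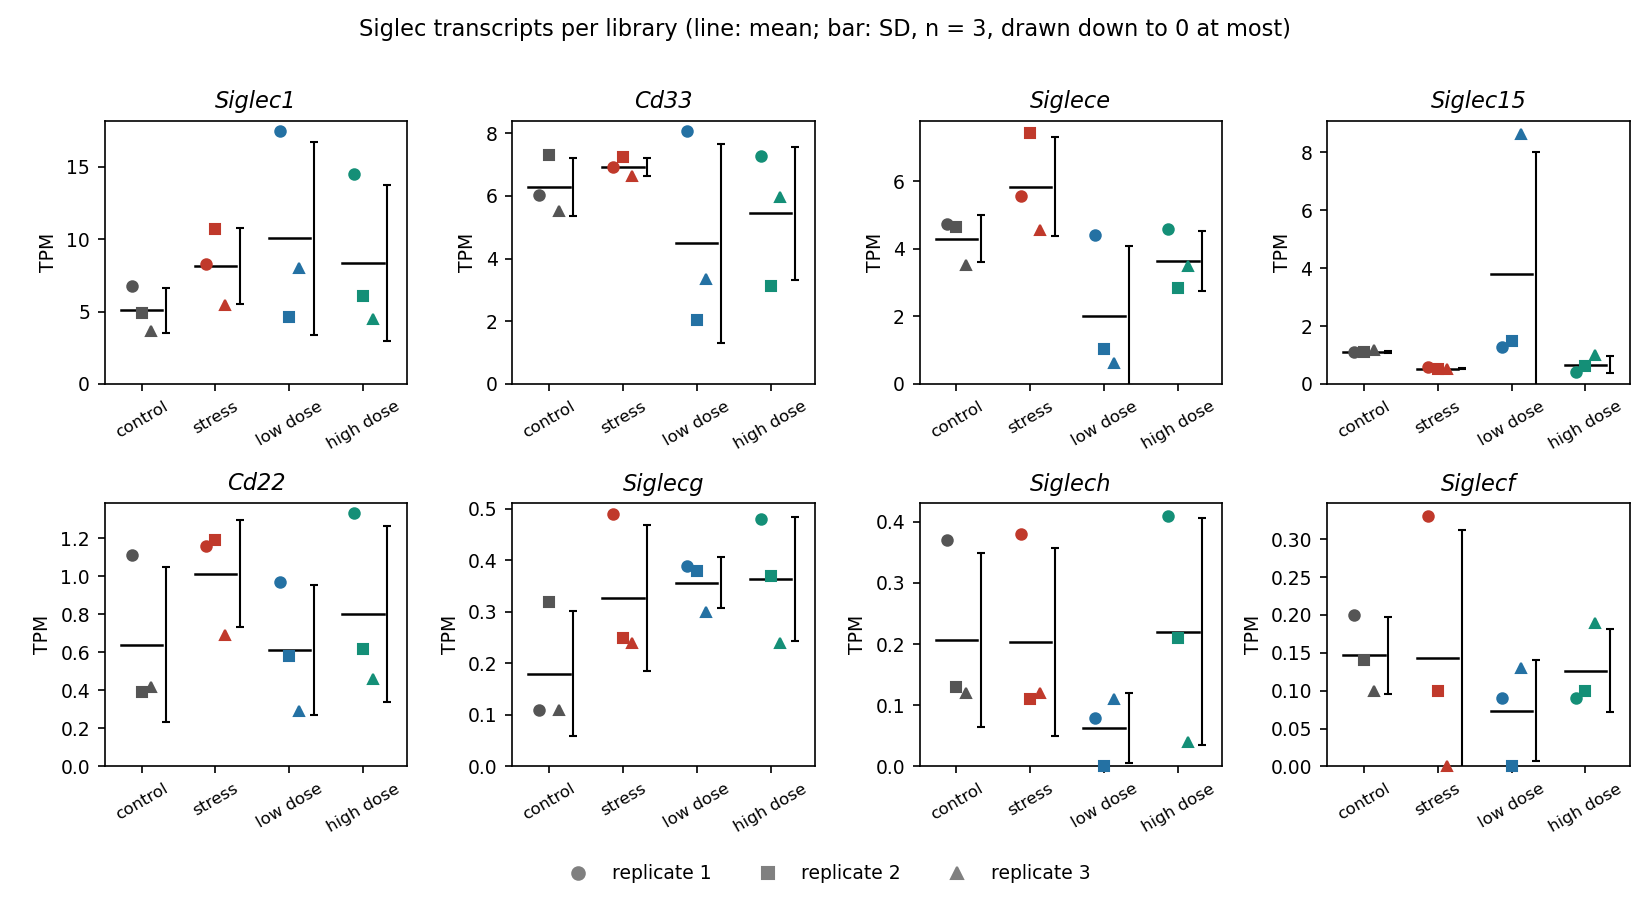
Levels of the 8 Siglec genes in TPM (y axis, starting at 0, with a scale of its own in each panel) in each library of the 4 groups (x axis). Points are libraries, lines are group means and bars are SD (n = 3). One low-dose library stands at 8.64 TPM of Siglec15, and the other two low-dose libraries lie at 1.27 and 1.47.

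Mean Siglec15 was lowest under stress and highest with the low dose, though stress and high dose overlapped and the lowest single library was of the high dose. The gene lies outside the chromosome 7 cluster, at chr18:78042493-78057441 on the minus strand. Its protein is found on macrophages and osteoclasts, acts in osteoclast development and restrains T cells in tumours. Siglec15 stood at 1.09, 1.09 and 1.16 TPM in control, 0.57, 0.52 and 0.51 under stress, 1.27, 1.47 and 8.64 with the low dose, and 0.40, 0.61 and 0.99 with the high dose. The stress libraries were all below the control and the low-dose libraries, and the low-dose libraries were all above the high-dose libraries. The counts behind these levels were small, at 21, 21 and 22 in control, 11, 10 and 10 under stress, 25, 36 and 184 with the low dose and 8, 12 and 19 with the high dose. The fitted log2 fold change of Siglec15 was -1.06 (SE 0.70) for stress against control and 3.00 (SE 0.69) for the low dose against stress. It was 0.32 (SE 0.72) for the high dose against stress and -2.68 (SE 0.67) for the high dose against the low dose. Low-dose library 3 sets the size of the low-dose value, since without it the fold change of Siglec15 against stress was 1.52 and that of the high dose against the low dose -1.20. Without high-dose library 3, the fold change of the high dose against stress was -0.06, so its direction turned.

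Siglece had the opposite pattern, highest under stress and lowest with the low dose. It encodes an inhibitory receptor of mouse macrophages, monocytes, neutrophils and dendritic cells. Siglece stood at 4.74, 4.66 and 3.51 TPM in control, 5.56, 7.43 and 4.55 under stress, 4.40, 1.04 and 0.62 with the low dose, and 4.58, 2.83 and 3.50 with the high dose. On CPM, the count scaled to the size of the library, the stress libraries were all above the control libraries and all above both decoction groups, while in TPM stress library 3 at 4.55 lay below control library 1 at 4.74 and high-dose library 1 at 4.58. Low-dose library 1 stood apart from the other two of its group and inside the range of the control libraries. The fitted log2 fold change of Siglece was 0.36 (SE 0.46) for stress against control, -1.46 (SE 0.48) for the low dose against stress, -0.66 (SE 0.46) for the high dose against stress and 0.80 (SE 0.48) for the high dose against the low dose. Without low-dose library 1 the low-dose value was -2.51 and the high-to-low value 1.85, and without low-dose library 3 they were -1.05 and 0.40. Without stress library 2 the value for stress against control was 0.21. In bulk tissue, fewer cells of a type and less RNA per cell cannot be told apart.

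Cd33, the neighbour of Siglece and like it a myeloid receptor, was steady in control and stress. Cd33 stood at 6.02, 7.30 and 5.52 TPM in control and at 6.93, 7.23 and 6.65 under stress. It stood at 8.07, 2.03 and 3.36 TPM with the low dose and at 7.26, 3.12 and 5.97 with the high dose. The decoction groups were more spread and overlapped the stress group. The log2 fold change of Cd33 was 0.14 (SE 0.37, edgeR adjusted p = 0.9999) for stress against control and -0.52 (SE 0.38, edgeR adjusted p = 0.548) for the low dose against stress. For the high dose against stress it was -0.35 (SE 0.37, edgeR adjusted p = 0.9998). Without low-dose library 1 the low-dose value was -1.13 (SE 0.32, edgeR adjusted p = 0.0486), the only alternative of those run that passed 0.05 for any of the 4 tested Siglecs. That fit called 1244 genes for the low dose against stress, so the pass is not particular to Cd33.

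Siglec1 was the most abundant member and varied widely between libraries of the same group. It stood at 6.74, 4.89 and 3.63 TPM in control, 8.31, 10.70 and 5.46 under stress, 17.47, 4.65 and 8.03 with the low dose, and 14.48, 6.05 and 4.47 with the high dose. The groups overlapped in all 4 comparisons. The log2 fold change of Siglec1 was 0.69 (SE 0.49, edgeR adjusted p = 0.9999) for stress against control, 0.39 (SE 0.49, edgeR adjusted p = 0.741) for the low dose and 0.03 (SE 0.49, edgeR adjusted p = 0.9998) for the high dose against stress. Without low-dose library 1 the low-dose value was -0.14.

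**Figure D2:**
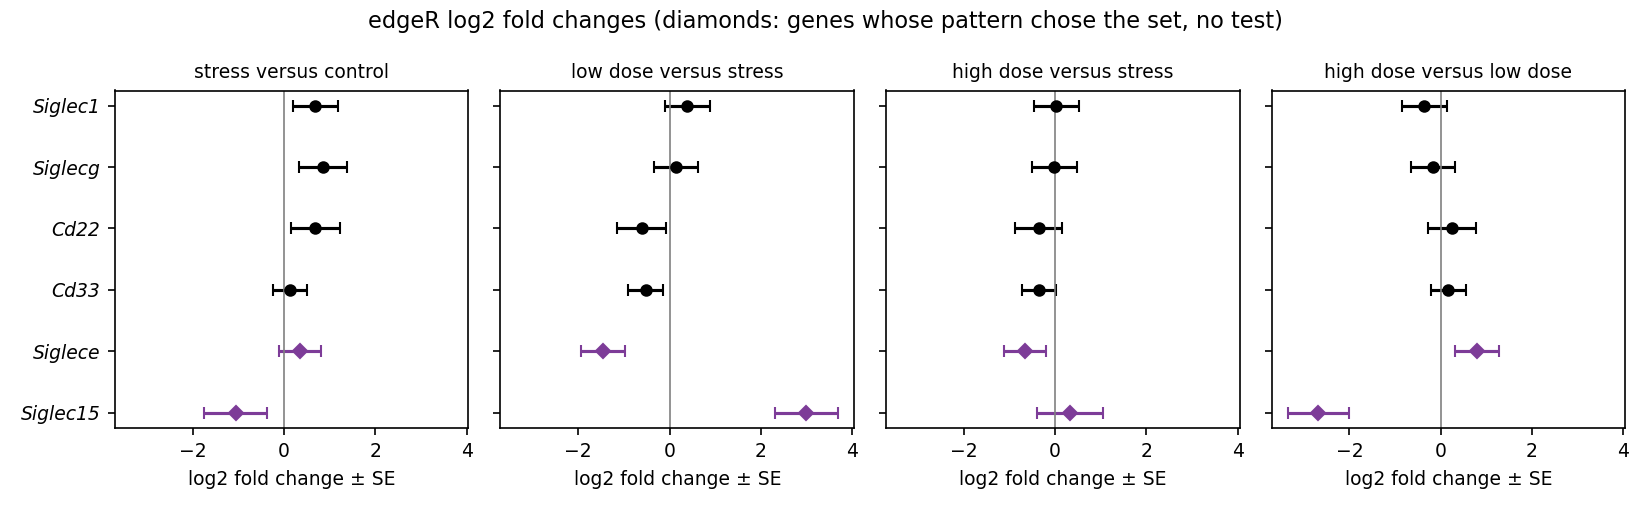
Fitted log2 fold changes (x axis) with SE bars for the Siglec genes that entered the fit (y axis), 1 panel per comparison. Siglec15 at 3.00 and Siglece at -1.46 stand farthest from 0 in the low-dose comparison with stress; these 2 genes chose the set and have no test.

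The B cell members were low. Cd22, the inhibitory co-receptor of the B cell receptor, stood at 1.11, 0.39 and 0.42 TPM in control, 1.16, 1.19 and 0.69 under stress, 0.97, 0.58 and 0.29 with the low dose, and 1.33, 0.62 and 0.46 with the high dose. The groups overlapped in all 4 comparisons. The log2 fold change of Cd22 was 0.69 (SE 0.53, edgeR adjusted p = 0.9999) for stress against control, and 1.34 without control library 1. For the low dose against stress it was -0.61 (SE 0.53, edgeR adjusted p = 0.615), with -0.96 without low-dose library 1 and -0.29 without low-dose library 3. For the high dose against stress it was -0.36 (SE 0.52, edgeR adjusted p = 0.9998), with -0.91 without high-dose library 1 and -0.07 without high-dose library 3. Siglecg, which damps B-1 cell signalling, lay between 0.11 and 0.49 TPM, on 3 to 12 counts a library. Its largest fitted change was 0.86 (SE 0.52, edgeR adjusted p = 0.9999) for stress against control. The B cell markers examined were all under 1 TPM in every library, and Ms4a1 had no count in 6 of 12. Whether Cd22 came from B cells was not tested.

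Siglech, a marker of plasmacytoid dendritic cells and microglia, and Siglecf, a receptor of eosinophils and alveolar macrophages, were too low to test. Siglech had 0 to 8 counts a library and Siglecf 0 to 7. Both were removed by the filter on low counts, which left 6 of the 8 members in the fit. In libraries with no count, the 3 counts that a 0 allows correspond to 0.167 to 0.172 CPM of the library's total count. Of the 5 eosinophil markers in the tables, Epx had no count in 11 libraries and Prg2 none in 8, while Ear2 was present in all at 0.360 to 9.29 TPM.

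With all 12 libraries, no Siglec with a test passed in any comparison, and neither did any other gene. With edgeR's quasi-likelihood test and Benjamini-Hochberg adjustment, 0% of 13453 genes passed 0.05 in each of the 4 comparisons. Before adjustment, p was under 0.05 for 383 genes for stress against control, 1796 for the low dose against stress, 191 for the high dose against stress and 860 between the doses. DESeq2 called 1, 98, 0 and 5 genes in the same order. Without low-dose library 1, edgeR called 1244 genes for the low dose against stress and 99 between the doses. The 3 comparisons with stress share the stress libraries. For stress against control, 2 of the 6 fitted Siglecs had groups that did not overlap in CPM, beside 14.1% of all genes. The count was 2 of 6 for the low dose against stress beside 11.9%, 1 of 6 for the high dose against stress beside 5.75%, and 1 of 6 between the doses beside 7.34%. Siglece and Siglec15 account for every one of these, and since they chose the set nothing is read from the counts. The median log2 fold change of the 6 was 0.52 for stress against control, -0.18 for each dose against stress and 0.00 between the doses. The medians of all genes tested lay within 0.006 of 0.

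Siglece was then set against macrophage markers. As a percentage of the summed TPM of 8 macrophage markers, Siglece stood at 0.79, 0.77 and 0.67 in control and at 0.71, 0.95 and 0.86 under stress. It stood at 0.44, 0.22 and 0.13 with the low dose and at 0.49, 0.57 and 0.61 with the high dose. The decoction libraries were thus below the others, which is a description of a gene that chose the set and carries no test. The 2 decoction libraries with Siglece inside its control range in TPM, low-dose library 1 and high-dose library 1, had the highest macrophage sums, at 990 and 940 TPM. High-dose library 3, at 3.50 TPM of Siglece against 3.51 in the lowest control library, had a macrophage sum of 578 TPM. C1qa, a complement gene at 270 to 619 TPM, was the largest term of the sum. Cd33 separated this way in part. It stood at 0.88, 0.92 and 1.26% under stress and at 0.82, 0.42 and 0.70% with the low dose. On this ratio the low-dose libraries were thus below every stress library for Cd33, and they were also below every control library. In TPM they overlapped both groups, with low-dose library 1 at 8.07, the highest Cd33 level of the 12 libraries. That library also had the highest macrophage sum, 990 TPM. The share of all genes that separate on this ratio is not given here. With the high dose Cd33 stood at 0.77, 0.63 and 1.03%, and of the decoction libraries only high-dose library 3 overlapped the control and stress libraries. Siglec1 did not separate, at 1.05, 1.36 and 1.03% under stress and 1.76, 0.97 and 1.66% with the low dose.

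**Figure D3:**
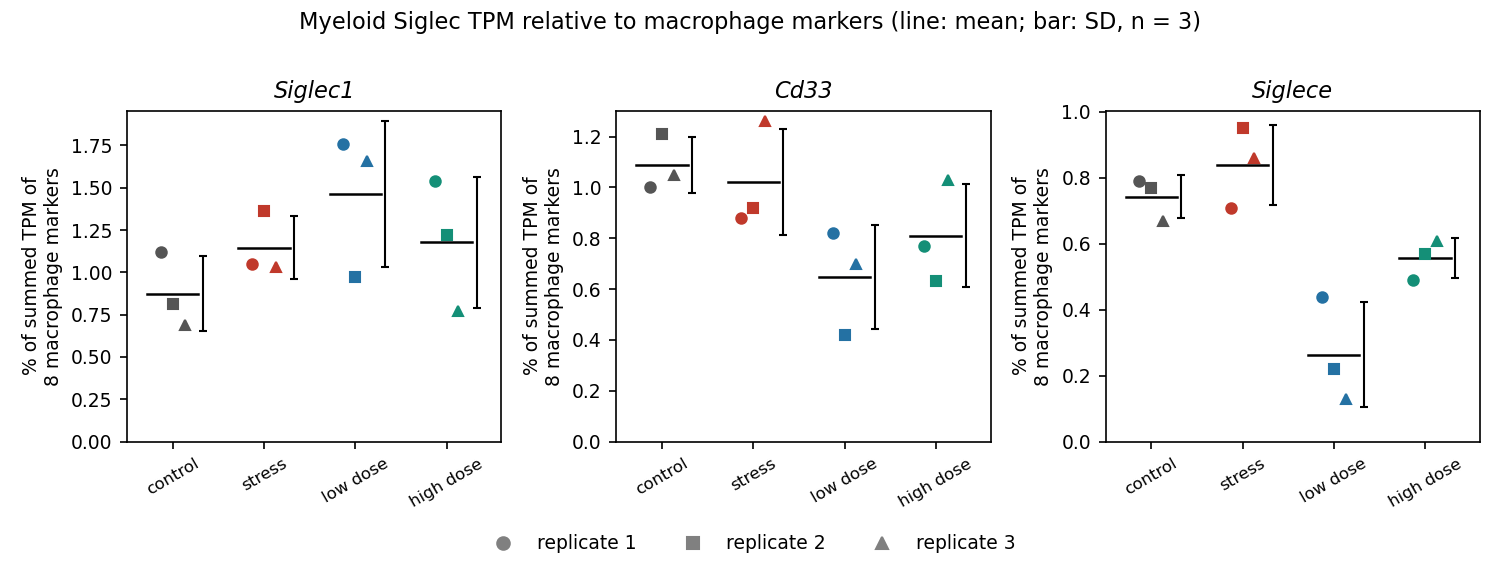
Siglece, Cd33 and Siglec1 as a percentage of the summed TPM of 8 macrophage markers (y axis) in each library of the 4 groups (x axis). For Siglece, the 6 decoction libraries lie at 0.13 to 0.61% and the 6 control and stress libraries at 0.67 to 0.95%.

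Summed levels of 2 other marker lists were also lowest in the low-dose group, as Siglece was. Conventional dendritic cell markers summed to 6.69 to 15.3 TPM with the low dose, 16.4 to 31.4 under stress, 25.8 to 28.6 in control and 21.0 to 26.3 with the high dose. Eosinophil markers, mostly Ear2, summed to 0.610 to 1.17 TPM with the low dose, 3.30 to 10.1 under stress, 1.61 to 8.54 in control and 2.97 to 3.91 with the high dose. Monocyte markers summed to 225 TPM in low-dose library 3, where Siglec15 was highest and Siglece lowest. They stood at 130 and 56.0 TPM in low-dose libraries 1 and 2. The other groups lay at 52.9 to 80.3 TPM in control, 49.9 to 105 under stress and 66.8 to 133 with the high dose. Of the 6 monocyte markers, Chil3 had the highest maximum, 105 TPM against a median of 3.18 over the 12 libraries. Osteoclast markers did not stand out in low-dose library 3, with 58.3 to 100 TPM in the low-dose group and 65.2 to 133 under stress. Calcr had no count in 10 libraries. The part of these cell types in the levels of Siglece and Siglec15 was not tested.

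Over the 12 libraries, log2 CPM of Siglece correlated with that of Cd33 (Pearson's r = 0.79, Spearman's rho = 0.68) and inversely with Siglec15 (r = -0.85, rho = -0.66), given as a description because all points share libraries and groups. Among 12631 genes with a mean of at least 1 CPM, those most like Siglece were Kcnj10, a potassium channel (r = 0.96), Pla2r1, a phospholipase A2 receptor (r = 0.96), Lilra5, a leukocyte immunoglobulin-like receptor (r = 0.96), Prkacb, a catalytic subunit of protein kinase A (r = 0.96), and Taok2, a kinase (r = 0.95). Without the 2 libraries farthest from the median of Siglece, these correlations lay between 0.60 and 0.88. The genes most like Siglec15 were Lgr6, a receptor of R-spondins (r = 0.95), Mex3c, an RNA-binding ubiquitin ligase (r = 0.93), Rnmt, the mRNA cap methyltransferase (r = 0.93), Csnk1a1, casein kinase 1 alpha (r = 0.92), and Hoxa9, a homeobox factor (r = 0.92). Without the 2 libraries farthest from the median of Siglec15, Hoxa9 stood at 0.96 and Csnk1a1 at 0.61.

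Mex3c, Rnmt and Csnk1a1 lie on chromosome 18 with Siglec15, a pattern looked at after these genes had been seen. Of the 50 genes most like Siglec15, 15 (30.0%) were on chromosome 18, against 2.59% of the genes compared. Of the 50 most like Siglece, 6 were on its own chromosome 7, which held 7.54% of the genes compared. Both rankings used all 12 libraries and were not repeated without low-dose library 3. They also rest on the 2 genes that chose the set, so the shares are a description only. In low-dose library 1 the median chromosome 18 gene was 0.08 above its own median, with the other autosomes at -0.06 to 0.05, while Siglec15 was 0.25 above. In low-dose library 3 the median chromosome 18 gene stood 0.12 above its own median over the 12 libraries in log2 CPM, the highest of the autosomes there, with the others at -0.10 to 0.07. The 41 genes within 5 Mb of Siglec15 had a median of 0.26 in that library, with 32 of them above 0, and of -0.05 to 0.03 in the others. Siglec15 itself stood 3.13 above its own median there, and Slc14a1, a urea transporter gene that starts next to it, stood 2.84 above. Farther off on chromosome 18, Lox stood 2.73 and Ccbe1 2.40 above in that library. Near Siglec15, Epg5 stood at -0.02 and Setbp1 at -0.82. Slc14a1, Lox, Ccbe1, Epg5 and Setbp1 were singled out after their values were seen. The cause was not tested.

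**Figure D4:**
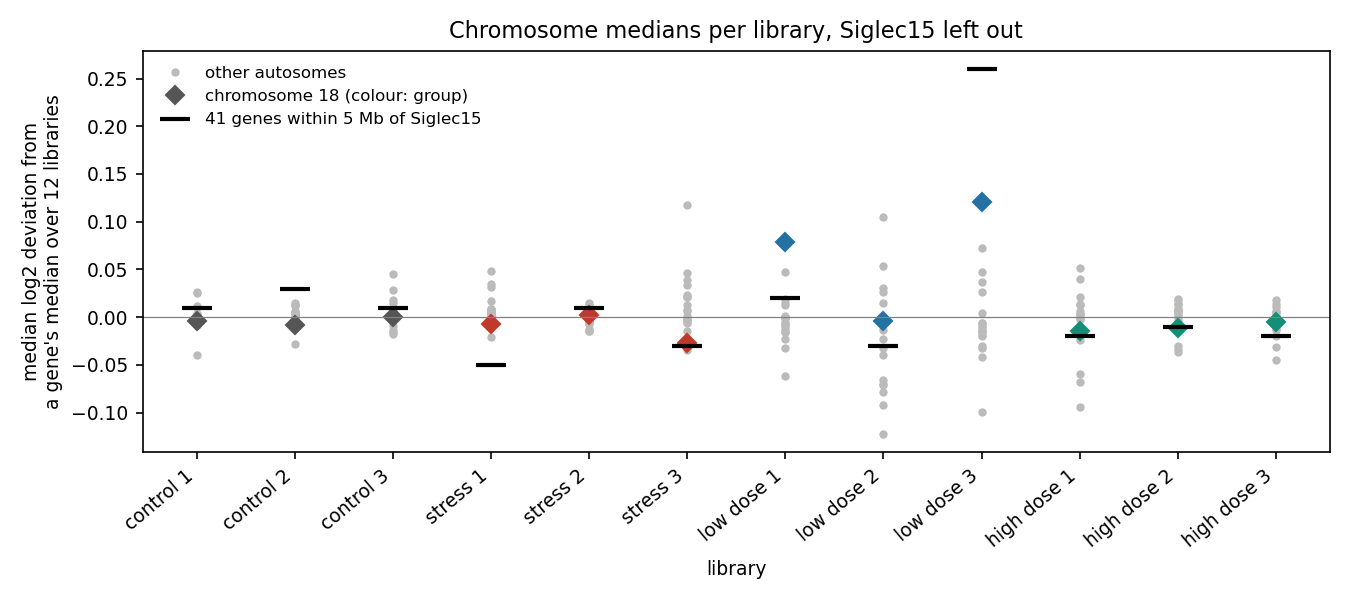
Median deviation of log2 CPM from each gene's median over the 12 libraries (y axis), by library (x axis), for chromosome 18 (diamonds), each other autosome (grey points) and the genes within 5 Mb of Siglec15 (black bars), with Siglec15 left out. Low-dose library 3 stands highest, with a median of 0.26 for the 41 genes within 5 Mb of Siglec15.

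The genes around the Siglecs, which make, cut and carry sialic acid or pass on the receptors' signals, formed 7 lists with 60 entries, of which 56 were in the tables and 49 were tested. None passed in any comparison. Before adjustment, p was under 0.05 for 2 of the 49 (4.08%) for stress against control, beside 2.85% of all genes, and for 6 (12.2%) for the low dose against stress, beside 13.4%. It was under 0.05 for 2 (4.08%) for the high dose against stress, beside 1.42%, and for 3 (6.12%) between the doses, beside 6.39%. For the low dose against stress, the median log2 fold change was 0.21 for sialic acid synthesis, 0.04 for sialyltransferases, -0.05 for sialidases and O-acetylation and -0.20 for carriers of Siglec ligands. It was -0.10 for signalling through the ITIM, 0.11 for the activating adaptors and kinases and 0.22 for other sialic acid receptors.

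St3gal5, which makes the ganglioside GM3 by adding sialic acid to lactosylceramide, had the smallest p among them. St3gal5 stood at 7.52, 9.20 and 6.35 TPM in control, 4.75, 6.50 and 4.70 under stress, 10.47, 9.73 and 9.15 with the low dose, and 9.72, 6.82 and 6.98 with the high dose. Both decoction groups lay wholly above the stress group. The log2 fold change of St3gal5 against stress was 1.01 (SE 0.21, edgeR adjusted p = 0.266) with the low dose and 0.56 (SE 0.21) with the high dose. DESeq2 gave the low-dose change of St3gal5 an adjusted p of 0.00525, and without low-dose library 1 edgeR gave 0.0272. These settings called 98 and 1244 genes for that comparison. Cmas, which activates sialic acid to its CMP form, had a log2 fold change of 0.47 (SE 0.13, edgeR adjusted p = 0.296) for the low dose against stress. Nanp, the phosphatase one step earlier, had 0.29 (SE 0.12, edgeR adjusted p = 0.9998) for the high dose against stress. St8sia6, a sialyltransferase that makes disialic acid ligands, had -0.96 (SE 0.54, edgeR adjusted p = 0.439) for the low dose against stress.

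On the signalling side, Hcst, encoding the adaptor DAP10, had a log2 fold change of 1.66 (SE 0.46, edgeR adjusted p = 0.9999) for stress against control, on 4, 4 and 3 counts in control and 12, 13 and 11 under stress. Syk, the kinase that docks on the activating adaptors, had -0.26 (SE 0.12) for the low dose against stress, and Inpp5d, the lipid phosphatase SHIP1, had -0.29 (SE 0.24). Csk, which holds Src family kinases inactive, had -0.20 (SE 0.10) for stress against control. Spn, encoding the sialylated leukocyte protein CD43, had -0.40 (SE 0.14) and the lysosomal sialidase Neu1 had 0.39 (SE 0.18) for the low dose against stress. Siae, which removes acetyl groups from sialic acid, had -0.34 (SE 0.18) in that comparison, and Mag, the myelin Siglec, had -0.67 (SE 0.48). Cd24a, a ligand carrier for Siglecg, had 0.83 (SE 0.43) and the receptor Pilrb2 had -0.65 (SE 0.35) for stress against control. None of these passed edgeR's adjusted threshold.

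**Figure D5:**
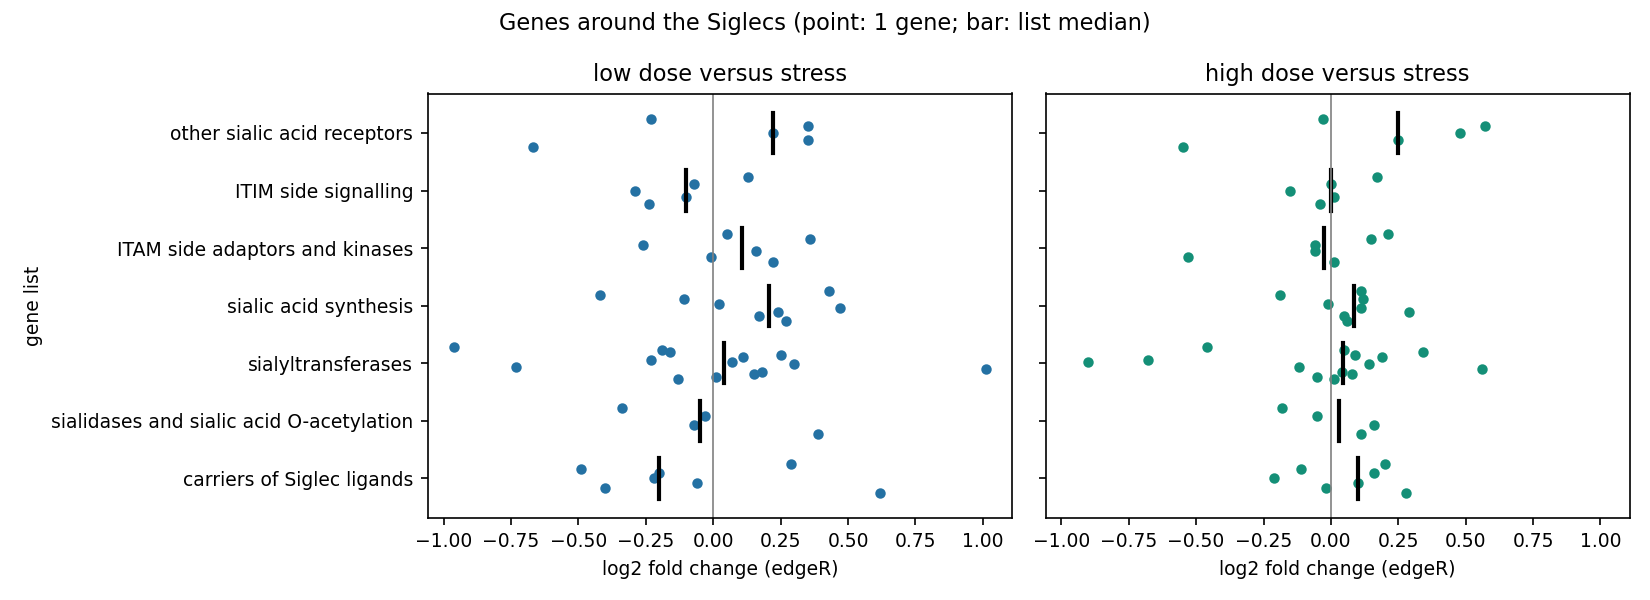
Log2 fold changes (x axis) of the tested genes in the 7 lists (y axis) for the low dose and the high dose against stress, with points for genes and bars for list medians. St3gal5 stands at 1.01 with the low dose and 0.56 with the high dose, and the list medians lie between -0.20 and 0.25.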

How the data were processed

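RNA from 12 subcutaneous tumour samples was selected for poly(A) and read as stranded, paired-end libraries, per the labels' protocols. Per the submitters' processing notes, the tools were cutadapt 1.9, HISAT2 2.0.4, StringTie 1.3.4d, DESeq2 and edgeR, with the build GRCm38.p6; their options are not given in the sources used here. The authors deposited estimated counts per gene, of which 11.7% to 12.5% a library were not whole; they were rounded here. Levels are given as TPM, which the authors computed and deposited as values corrected for transcript length. FPKM, also deposited by the authors, was used only to check gene length. Spreadsheet dates were turned back into 26 gene symbols.

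The filter filterByExpr (minimum count 10) passed 13453 genes. All 12 libraries entered a single robust quasi-likelihood fit in edgeR 4.0.16 (R 4.3.3, 2-sided tests, TMM normalisation), with 8 residual degrees of freedom, a common dispersion of 0.038 and Benjamini-Hochberg adjustment over all genes. Each edgeR SE is the size of the log2 fold change divided by the square root of the F statistic of that test. For Siglec15 and Siglece it is therefore a description and no independent measure of error. DESeq2 1.42.0 was an alternative. Counts bear counting error, and intervals and floors cover that error only. Replicate libraries differed beyond sampling noise and were all kept. The members, the gene lists and the alternatives were chosen with earlier results of these data known. Named genes were all 8 Siglecs, the 5 genes most correlated with Siglec15 and with Siglece, and for each list with no passing gene the 2 with the smallest unadjusted p. Promoter sequences are from RefSeq, GRCm38.p6.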

Additional observations from a re-analysis of the deposited data

How the results depend on the processing

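The number of genes passing edgeR's adjusted p of 0.05 was 0 in all 4 comparisons, and stayed 0 when genes were unfiltered or filtered at 50 counts, when RLE replaced TMM, when the fit held just the compared pair of groups, and without the 3 muscle-rich libraries. DESeq2 called 1 gene for stress against control, 98 for the low dose against stress, 0 for the high dose against stress and 5 between the doses. Leaving out each library gave 0 to 0, 0 to 1244, 0 to 0 and 0 to 99 genes in that order. The 1244 and the 99 came without low-dose library 1. With the replicate number as a block the count was 0 in all 4 comparisons. Nothing in the labels pairs the libraries by number. The best match of a library shared its number in 5 of 12 cases, a count that cannot show whether they are paired.

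For the 4 tested Siglecs, 281 of 294 alternative values kept their direction and side of the threshold, 12 reversed and 1 passed. Siglec1 for the high dose against stress was -0.14 with the replicate block. Leaving out each library gave Siglec1 -0.14 to 0.70 for the low dose against stress, -0.62 to 0.33 for the high dose against stress and -1.01 to 0.16 between the doses. It gave Siglecg -0.29 to 0.29 for the high dose against stress and -0.44 to 0.10 between the doses, and between the doses Cd22 -0.30 to 0.60 and Cd33 -0.14 to 0.78. The causes were not tested. Without low-dose library 1, Cmas (adjusted p = 0.0205), Syk (0.0347), Siae (0.0339) and Inpp5d (0.0443) passed edgeR for the low dose against stress. That fit called 1244 genes for this comparison, so these passes are not read as particular to the lists. At a minimum count of 50, Siglec15, Siglecg and Cd22 left the fit. The correlation across 11069 genes of a library's log2 CPM deviation with log2 gene length ran from -0.60 in low-dose library 2 to 0.39 in high-dose library 3, and its part in the results was not tested.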
